A study of Mus musculus with 76 samples.

Results

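Collagen genes of the mouse were followed in heart, liver and SCN, the suprachiasmatic nucleus, a pacemaker of daily rhythms in the hypothalamus. Members were the protein-coding genes with a numbered collagen chain symbol (Col, a type number, a, a chain number) and a mean level of at least 0.5 CPM (counts scaled to a fixed library total) in at least 1 of the 3 tissues. The rule found 44 names and kept 43 of the 38129 genes counted. The gene left out was Col10a1, whose highest tissue mean was 0.13 CPM, in the SCN. The rule used only tissue means over all groups, so it did not use feeding, time or genotype.

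Bulk RNA-seq libraries were made from total RNA of wild type (WT) mice and of mice labelled Bmal1-VIPKO (KO here), in which the clock gene Bmal1 (Arntl) was removed centrally from cells that make the neuropeptide VIP. Mice of both genotypes were fed ad libitum (AL) or under time-restricted feeding (TRF), and tissue was taken at circadian time CT0 or CT12. The feeding hours, sex and age of the mice are not given in the sources used here. Liver had 26 libraries, heart 26 and SCN 24, in 24 groups: 20 groups of 3 and, for TRF KO in liver and heart, 4 groups of 4. Libraries are called by the number in their title. Nothing states that libraries of a group came from separate animals, so the p-values measure the spread between these libraries, which may in part be technical.

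Collagens are secreted or membrane proteins whose chains wind in threes into a triple helix, which requires a glycine in each Gly-X-Y triplet of residues. Fibrillar collagens (types I, II, III, V, XI and relatives) form the cables of connective tissue, type IV forms the mesh of basement membranes, type VI forms beaded filaments, FACIT collagens decorate fibrils, multiplexins (XV and XVIII) sit at basement membrane zones, and others stay in the plasma membrane. Prolyl and lysyl hydroxylases and the chaperone HSP47 act on the chains in the endoplasmic reticulum before secretion and cross-linking. In liver, fibrillar collagen is mainly made by stellate cells and portal fibroblasts and Col18a1 largely by hepatocytes, while in heart fibroblasts, endothelium and mural cells make most of it.

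Library totals ran from 13502014 to 19018983 counts. The liver libraries summed to a mean of 104500 CPM over 6 hepatocyte markers and the hearts to 71880 CPM over 6 cardiomyocyte markers. Hearts reached at most 233.3 CPM and SCN libraries at most 3497 CPM of the hepatocyte list, and livers at most 123.6 CPM of the cardiomyocyte list. The hepatocyte gene Alb was at 141, 179 and 150 CPM in the 3 TRF WT CT0 hearts and at 1.19 to 3.38 CPM in the TRF WT CT12 hearts. In all, 7 of 26 hearts passed 0.05% of the liver level of Alb. At their share the TRF WT CT0 hearts would gain 2.3 to 2.92 CPM of Col18a1 from liver. Arntl, the targeted gene, was at 23.28 ± 3.08 CPM (SD, n = 12) in KO SCN and 22.34 ± 2.41 CPM (SD, n = 12) in WT SCN. The genotypes overlapped in range, so whole-SCN Arntl did not separate them. The deletion is aimed at VIP cells, which are a part of the SCN, and this level therefore does not check the genotype labels. In liver and heart, the 1 AL library with a 3-digit number in each of the 4 AL groups was closer to the first library of its group than to the other one. The counts still differed by more than sampling noise, with a chi-square per degree of freedom of 1.75 to 5.49 against the first library and 4.62 to 245.6 against the other. In AL KO livers these were 5.49 against 7.01 at CT0 and 3.31 against 6.85 at CT12. They were kept as separate libraries, and many results are given without them too. Heart calls described below that also ended without them include Col7a1 for AL WT time (adjusted p 0.0955) and Col26a1 for AL genotype (0.119). Others are Col16a1 for feeding by genotype (0.0775) and Col11a1 for genotype by time under AL (0.148). In bulk tissue, fewer cells of a type and less RNA per cell cannot be told apart.

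The triplet repeat can be read in the genes themselves. One 54-base coding exon is shown for each of 7 members that the results below turn on, read from GRCm38 with GENCODE vM21 exons, 5′ to 3′ on the coding strand. Capitals mark the 6 glycine codons (GGN) that open each 9-base triplet, 1 in every 3 codons. The exons were those of the liver's and heart's leading members and of the members that changed with time or feeding.
Col18a1 (chr10:77067379-77067432, minus strand, coding exon 27): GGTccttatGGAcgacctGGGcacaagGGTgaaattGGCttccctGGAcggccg
Col5a3 (chr9:20801068-20801121, minus strand, coding exon 15): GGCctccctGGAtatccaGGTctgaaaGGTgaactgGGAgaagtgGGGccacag
Col3a1 (chr1:45325360-45325413, plus strand, coding exon 6): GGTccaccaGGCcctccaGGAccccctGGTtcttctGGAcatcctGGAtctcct
Col1a1 (chr11:94939904-94939957, plus strand, coding exon 8): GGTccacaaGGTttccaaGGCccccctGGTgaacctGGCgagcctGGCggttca
Col4a1 (chr8:11245211-11245264, minus strand, coding exon 7): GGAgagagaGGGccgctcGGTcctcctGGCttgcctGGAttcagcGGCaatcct
Col11a2 (chr17:34051480-34051533, plus strand, coding exon 15): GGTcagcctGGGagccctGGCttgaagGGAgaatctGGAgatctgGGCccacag
Col25a1 (chr3:130577302-130577355, plus strand, coding exon 32): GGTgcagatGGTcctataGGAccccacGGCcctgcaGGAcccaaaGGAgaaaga

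The classes differed in how long this pattern ran unbroken. In the 11 fibrillar members the longest run of glycine-led triplets had a median of 338 and a range of 216 to 344, and 305 of their 649 coding exons (47.0%) were 54 bases long. In the 6 type IV members the longest run had a median of 43.5 triplets and a range of 39 to 66, and 12 of 296 exons (4.1%) had 54 bases. The 9 FACIT members had a median longest run of 57 triplets, with 109 of 431 exons (25.3%) of 54 bases, and the 2 multiplexins had 4 of 81 (4.9%). Several members are neighbours: Col4a1 and Col4a2 lie head to head on chromosome 8 on opposite strands with starts 21 bases apart, Col4a3 and Col4a4 likewise on chromosome 1 with starts 72 bases apart, and Col3a1 and Col5a2 lie on chromosome 1 with 24614 bases between them. Whether counting used strand is not given in the sources used here, so counts are uncertain for members that share exon bases with another gene, among those described below Col20a1, Col3a1, Col4a1, Col4a2, Col4a3, Col5a1, Col6a6, Col7a1, Col9a3 and Col15a1.

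Liver used few collagen genes and heart many. At 0.5 CPM or more, 26 members were found in liver, 36 in heart and 43 in the SCN. All 26 liver members were also in heart and SCN, 10 were in heart and SCN but not liver, and 7 were in the SCN only. Without the 3 AL WT CT12 hearts, which hold brain transcripts as described below, 33 members were found in heart, 25 of them also in liver. The 3 lost were Col25a1, Col11a1 and Col26a1, with heart means of 0.377, 0.0616 and 0.375 CPM without those hearts. Yet the summed share of counts was alike in the peripheral tissues: 0.1746% ± 0.0221 (SD, n = 26) in liver and 0.1717% ± 0.0365 (SD, n = 26) in heart, against 0.1027% ± 0.00797 (SD, n = 24) in the SCN. In liver 7 members reached 10 CPM and 2 reached 100 CPM, while in heart 20 reached 10 CPM and 5 reached 100 CPM. These levels are CPM on library totals, and levels of different genes are compared per kilobase of exon.

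The liver sum was mostly 1 gene. Col18a1, whose C-terminal fragment is endostatin, stood at 1351 ± 233.5 CPM (SD, n = 26) in liver, 79.7 times its heart mean, and held 80.3% of liver collagen per kilobase, with a library range of 72.0% to 86.9%. The next per kilobase were Col5a3, a type V chain, at 13.5 ± 3.97 CPM per kilobase, and Col27a1, a fibrillar chain best known from cartilage, at 10.1 ± 4.06. Col14a1, a FACIT, followed at 4.42 ± 1.10 CPM per kilobase and Col4a1 at 2.94 ± 0.656, all over 26 livers. Next came Col4a2 at 2.83, Col6a1 at 2.16, Col3a1 at 1.96, Col15a1 at 1.05, Col5a1 at 0.963 and Col20a1 at 0.904 CPM per kilobase. Col13a1, a transmembrane collagen, was the highest of its class in liver at 1.05 CPM per kilobase. Col26a1 had 0 counts in all 26 livers.

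In heart the basement membrane chains led. Col4a2 stood at 53.9 ± 12.3 and Col4a1 at 49.8 ± 12.5 CPM per kilobase (SD, n = 26), and the 2 chains differed by less than their spread. Col6a1 followed at 23.8 ± 4.79, then the type III chain Col3a1 at 16.1 ± 5.70, the type I chain Col1a1 at 13.5 ± 4.23 and the multiplexin Col15a1 at 13.4 ± 3.39 CPM per kilobase. Col6a2 was at 11.2, the other type I chain Col1a2 at 10.8, Col5a3 at 6.00, Col5a1 at 5.83, Col4a5 at 5.62 and Col6a3 at 3.51 CPM per kilobase. By class, type IV made up 47.7% of heart collagen per kilobase, fibrillar chains 24.5%, type VI 17.1% and multiplexins 6.78%. In liver the same classes were at 2.58%, 12.0%, 1.47% and 80.8%. The short-chain network collagen Col8a1 was at 13.4 CPM in heart, 60.7 times its liver mean.

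The SCN held another mix. FACIT chains made up 28.3% of its collagen per kilobase, type IV 25.0%, fibrillar 17.4%, type VI 10.6% and transmembrane chains 8.51%. Col4a2 led at 24.8 ± 3.08 CPM per kilobase (SD, n = 24), followed by the FACIT chains Col16a1 at 14.2 ± 2.03 and Col9a2 at 13.7 ± 2.36. The transmembrane collagen Col25a1, known from neurons, was at 7.86 ± 1.25 and the type XI chain Col11a2 at 9.01 ± 0.754 CPM per kilobase. Col4a1 was at 10.5, the type IX chain Col9a3 at 10.5, Col6a1 at 9.12, Col18a1 at 5.02, Col23a1 at 4.23, Col11a1 at 3.93 and Col15a1 at 3.66 CPM per kilobase.

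**Figure D1:**
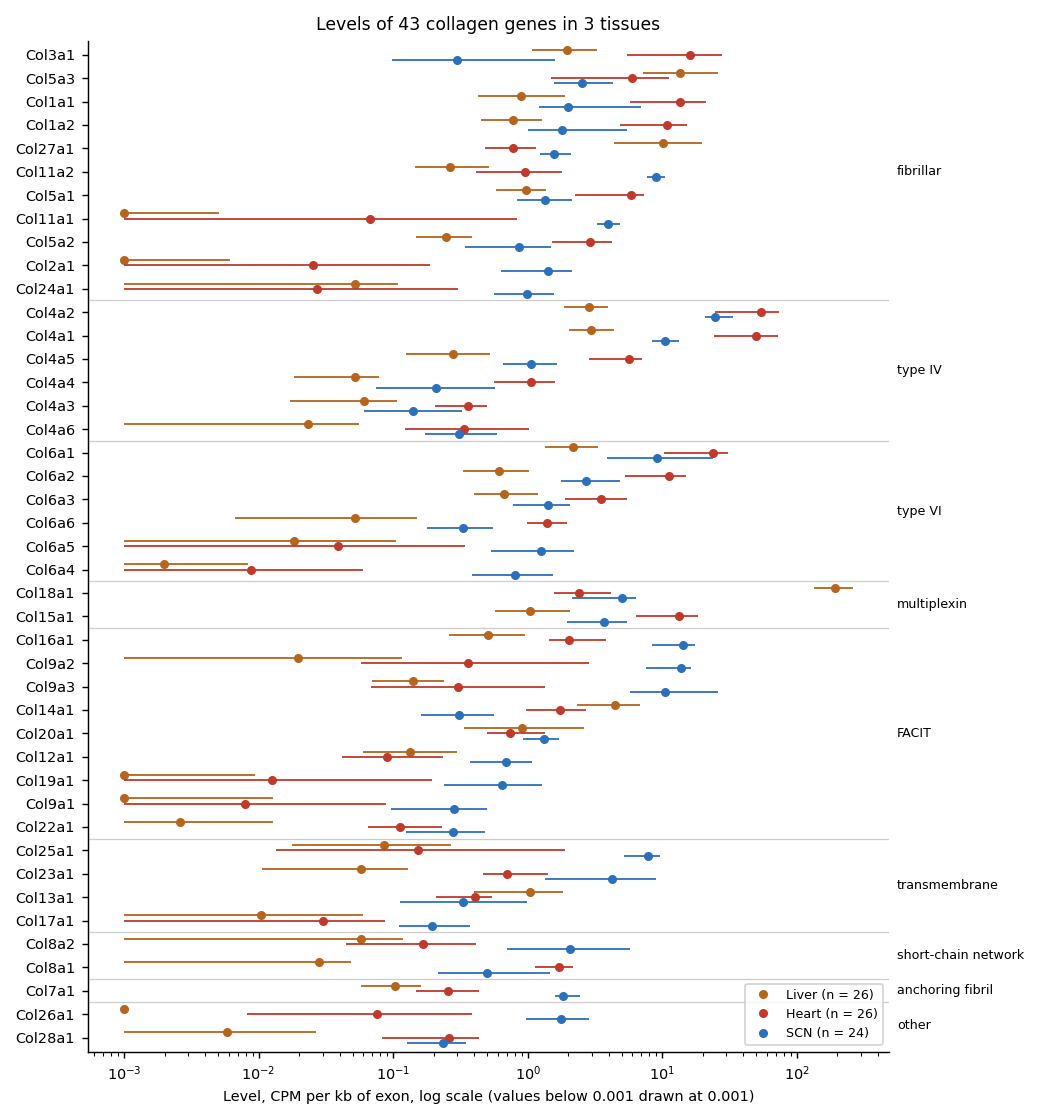
Level of each of the 43 collagen genes in CPM per kilobase of exon (log axis, values below 0.001 drawn at 0.001), grouped by class. Points are means over 26 liver, 26 heart and 24 SCN libraries and lines run from the lowest to the highest library. Col18a1 is the only member whose liver level passes 100 CPM per kilobase, and the heart is led by Col4a2 and Col4a1.

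The library ranges of heart and liver did not overlap for 24 of 43 members, 22 of them higher in heart and 2, Col18a1 and Col27a1, higher in liver. The share of all genes without overlap is not given here, so this count describes the members only. In the fit over all 3 tissues, 29 members were higher and 9 lower in heart than in liver (background: 83.6% of 20006 genes called, 43.5% higher and 40.1% lower), with a median log2 difference of 2.11 against 0.18 over all genes. Against liver, 31 members were higher and 9 lower in the SCN (background 93.1%, 47.4% higher and 45.8% lower), with a median of 1.82 against 0.05. Between SCN and heart 21 were higher and 21 lower (background 90.2%, 45.9% and 44.3%). Members were chosen partly by tissue level, so these counts describe the repertoire.

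In livers under time-restricted feeding, collagen genes that passed the test between CT12 and CT0 were mostly higher at CT12. In TRF WT, 5 of 28 tested members rose and 1 fell, where 23.1% of 14397 genes passed (11.0% higher, 12.1% lower). The median member changed by 0.44 on the log2 scale, against 0.02 over all genes, and 22 of 28 members had a positive change. In TRF KO, 5 rose and 2 fell, where 22.0% of genes passed (10.5% higher, 11.5% lower), with a median of 0.14 against 0.03. The share of members called was near the background in both. From here on values are TMM-scaled CPM, fold changes come with the standard error of the edgeR quasi-likelihood fit, and p-values are adjusted over all genes of the tissue.

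Col13a1, a transmembrane collagen of adhesion sites, was at 8.53, 5.10 and 3.91 CPM in the TRF WT livers at CT12 and at 1.83, 3.38 and 2.40 CPM at CT0. The times did not overlap, and it rose by 1.20 ± 0.27 on the log2 scale (adjusted p = 0.0026). Col14a1, which binds fibril surfaces, was at 28.7, 27.8 and 37.0 CPM at CT12 and at 16.5, 20.5 and 20.1 CPM at CT0. Again every CT12 library was above every CT0 library, with a log2 change of 0.71 ± 0.17 (adjusted p = 0.00478). Both calls held whichever library was left out, and with only the TRF WT groups in the fit the p for Col13a1 was 0.0532. Col6a3, a type VI chain, was at 7.10, 9.15 and 14.0 CPM against 4.75, 6.70 and 6.59 CPM, without overlap (log2 0.74 ± 0.24, adjusted p = 0.0255), and the call ended without library 1 or library 12 (p 0.128 to 0.24). The smaller changes were those of Col5a2 (0.69 ± 0.23), Col20a1 (0.87 ± 0.31) and Col25a1, which fell by 2.08 ± 0.69 at 0.223 to 1.90 CPM. Those calls ended when 1 of 4, 14 and 5 libraries, in that order, was left out.

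In TRF KO livers the members called higher were Col3a1, Col5a3, Col4a1, Col6a3 and Col12a1. Col3a1 was at 21.0, 21.6, 32.3 and 21.9 CPM at CT12 and at 15.0, 14.7, 13.1 and 13.5 CPM at CT0. The times did not overlap, and the log2 change was 0.78 ± 0.20 (adjusted p = 0.0053). Col5a3 was at 74.2, 87.2, 107 and 72.6 CPM at CT12 and between 50.8 and 59.2 CPM in the 4 CT0 libraries (0.63 ± 0.17, adjusted p = 0.00826). Col4a1 ran from 23.5 to 30.1 CPM at CT12 and from 16.0 to 20.2 CPM at CT0, again apart (0.55 ± 0.15, adjusted p = 0.00832). Col6a3 was at 13.9, 8.47, 11.7 and 7.41 CPM against 5.07, 7.46, 4.96 and 5.47 CPM, with 1 pair of libraries overlapping (0.85 ± 0.21, adjusted p = 0.00403). These 4 calls held whichever library was left out. Col12a1 rose by 1.05 ± 0.29, a call that ended without library 64 (p 0.0942). The FACIT Col20a1 fell by 0.93 ± 0.26, a call that ended without library 21 (p 0.0827), and Col25a1 fell by 1.45 ± 0.48, which ended without any 1 of 5 libraries. The difference between genotypes in the time effect under TRF was itself called for 0 of 28 members by edgeR (background 0.0556%), with 3 at an unadjusted p under 0.05 and 1 called by DESeq2. The members named in only 1 genotype are thus not shown to differ between them. Backgrounds here and below are shares at the adjusted threshold, so counts at an unadjusted p come without one.

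**Figure D2:**
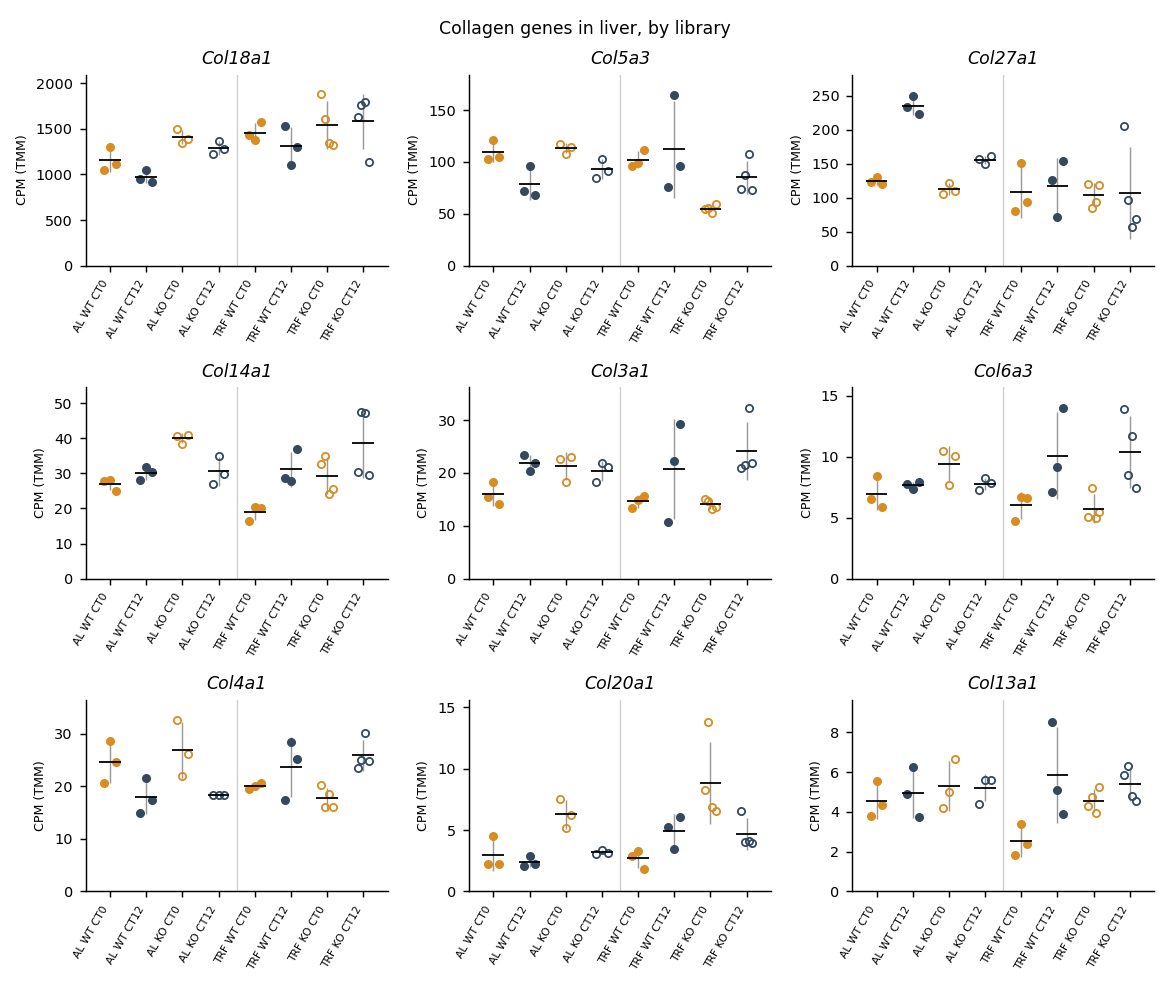
TMM-scaled CPM (y axes from 0) of 9 collagen genes in each liver library by feeding, genotype and time. Points are libraries (orange CT0, dark CT12, open KO), bars are group means and vertical lines the SD. Under TRF WT, Col13a1 and Col14a1 have every CT12 library above every CT0 library, and under TRF KO Col3a1, Col5a3 and Col4a1 do.

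Under ad libitum feeding edgeR called 0 of 28 members in livers of either genotype (background 8.99% in AL WT and 0.0139% in AL KO). In AL WT 4 members had an unadjusted p under 0.05 and DESeq2 called 1. Col27a1 was at 233.7, 249.4 and 222.8 CPM at CT12 and at 123.7, 131.1 and 120.2 CPM at CT0 in AL WT. Those groups lay far apart, yet with the spread pooled over the 8 liver groups the log2 change of 0.91 ± 0.34 had an adjusted p of 0.11. In AL KO 6 members had an unadjusted p under 0.05, and the median member was at -0.28, with 4 of 28 positive.

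The feeding difference in the time effect was tested directly. In WT it was called for 2 of 28 members, both higher under TRF: Col4a1 by 0.69 ± 0.24 and Col13a1 by 1.07 ± 0.38 (background 25.0%, 11.9% higher). In KO it was called for 4, all higher under TRF (background 11.1%, 5.24% higher): Col4a1 by 1.10 ± 0.22 (adjusted p = 0.00194), Col6a3 by 1.12 ± 0.31, Col5a3 by 0.92 ± 0.26 and Col14a1 by 0.79 ± 0.23. Col4a1 in AL KO was at 32.7, 22.0 and 26.2 CPM at CT0 and at 18.4, 18.3 and 18.4 CPM at CT12, the reverse order of TRF KO. Col4a1 in KO was the single one of these 6 calls that held without the 3-digit AL libraries and whichever library was left out. The others ended without any 1 of 3 to 8 libraries. For AL livers the genotype difference in the time effect was called for 0 members (background 1.56%, 2 at an unadjusted p under 0.05).

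Genes that build and remodel collagen also differed between the times under TRF. In TRF WT livers, of 18 hydroxylation and folding genes 5 rose and 1 fell, of 9 processing and cross-linking genes 3 rose, of 8 degradation genes 4 rose and 1 fell, and of 20 other matrix genes 10 rose and 1 fell, with list medians of 0.46, 0.53, 0.64 and 0.75, where 23.1% of all genes passed (11.0% higher). P4ha1, a prolyl 4-hydroxylase subunit, rose by 1.49 ± 0.18 (adjusted p = 3.15e-06), and Serpinh1, which encodes HSP47, by 1.85 ± 0.27 (adjusted p = 3.13e-05). Loxl4 of the lysyl oxidase family rose by 4.66 ± 0.78 and the inhibitor of metalloproteinases Timp3 by 1.54. Mia3, needed to export procollagen from the endoplasmic reticulum, fell by 0.52 ± 0.09 (adjusted p = 0.000123). In TRF KO the same lists gave 4 and 2, 2 and 0, 3 and 0, and 7 and 0 genes higher and lower, with medians of 0.05, 0.46, 0.29 and 0.38, where 22.0% of all genes passed (10.5% higher). There P4ha1 rose by 0.87 ± 0.16, Serpinh1 by 1.16 ± 0.23, Loxl4 by 4.58 ± 0.65 and the basement membrane linker Nid2 by 1.81 ± 0.27.

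Markers of non-hepatocyte cells moved in the same livers. In TRF WT 3 of 7 stellate, 4 of 7 sinusoidal endothelial, 6 of 6 endothelial, 3 of 6 fibroblast and 4 of 6 mural markers rose and 0 fell, where 11.0% of all genes were called higher. The summed stellate markers ran from 42.64 to 61.92 CPM at CT0 and from 70.17 to 86.41 CPM at CT12, the endothelial from 55.96 to 64.4 and from 98.9 to 107.0 CPM, and the fibroblast from 11.41 to 13.9 and from 23.17 to 25.84 CPM. None of these ranges overlapped. In TRF KO 1 of 7 stellate, 2 of 7 sinusoidal, 1 of 6 endothelial and 0 fibroblast or mural markers rose, where 10.5% of all genes were called higher, and the stellate sums of 69.03 to 83.76 CPM at CT0 and 82.5 to 108.6 CPM at CT12 overlapped. Their part in the collagen result was not tested.

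Feeding, averaged over genotype and time, changed few liver collagens. Col18a1 ran from 1099 to 1880 CPM in 14 TRF livers (median 1478) and from 912 to 1492 CPM in 12 AL livers (median 1246). The groups overlapped, and Col18a1 was higher under TRF by 0.30 ± 0.07 (adjusted p = 0.00721). In WT alone the change was 0.38 ± 0.11 (adjusted p = 0.0344), a call that ended without any 1 of libraries 3, 10, 12, 38 and 47 or of the 3-digit AL WT libraries of CT0 and CT12 (p 0.0597 to 0.104). Col20a1 was higher by 0.48 ± 0.15 and Col4a3, at 0.167 to 1.08 CPM, lower by 0.51 ± 0.18 (log2 -0.51), calls that ended without any 1 of 7 and of 17 libraries. Thus 2 of 28 members rose and 1 fell, where 19.8% of genes passed (10.9% higher, 8.95% lower), and in WT 1 rose, where 7.18% passed (4.09% higher). Without the 4 AL libraries of 3-digit number 0 members were called in either comparison, and Col18a1 had a log2 change of 0.27 with an adjusted p of 0.086. Of 7 stellate markers 3 were lower under TRF and 0 higher, and their part was not tested.

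In KO livers Col5a3 ran from 50.8 to 107 CPM under TRF (median 65.9, n = 8) and from 84.4 to 118 CPM under AL (median 105, n = 6). The groups overlapped, and it fell by 0.58 ± 0.13 (adjusted p = 0.00478), whichever library was left out. It was the single member called (background 10.5%, 5.26% lower). The feeding effect on Col5a3 was lower in KO than in WT by 0.79 ± 0.19 (log2 -0.79, adjusted p = 0.0427; background 0.827%, 0.590% lower), but this ended without any 1 of 18 libraries and, without the 3-digit AL libraries, the p was 0.373.

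Between genotypes, Col5a3 was also lower in KO under TRF. The 8 TRF KO livers ran from 50.8 to 107 CPM and the 6 TRF WT livers from 75.5 to 164 CPM (median 97.6), with overlap, a log2 change of -0.64 ± 0.13 and an adjusted p of 0.00277. Col14a1 was higher, at 24.1 to 47.4 CPM (median 31.5) against 16.5 to 37.0 CPM (median 24.1), again with overlap (0.47 ± 0.12, adjusted p = 0.0116). Both calls held whichever library was left out, and with only the TRF groups in the fit the p for Col14a1 was 0.0574. Col15a1, a multiplexin of muscle and vessels, was lower by 0.70 ± 0.17 (log2 -0.70) and Col20a1 higher by 0.81 ± 0.20, calls that ended without library 3 (p 0.0538 and 0.0556). Col25a1, higher, and Col1a1, lower, ended without any 1 of 11 and of 20 libraries. In all 3 members rose and 3 fell, where 10.4% of genes passed (5.32% higher, 5.06% lower), and the median member was at 0.11 against 0.

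Under AL, 3 members were higher and 0 lower in KO than WT livers (background 20.5%, 10.3% higher). Col4a5, a type IV chain, ran from 1.80 to 3.09 CPM in 6 KO livers (median 2.63) and from 1.16 to 1.77 CPM in 6 WT livers (median 1.36). The genotypes did not overlap, and the log2 difference was 0.84 ± 0.25 (adjusted p = 0.0189), whichever library was left out, but with an adjusted p of 0.0933 without the 4 AL libraries of 3-digit number. Col18a1 was higher by 0.35 ± 0.11 and Col20a1 by 0.75 ± 0.23, calls that ended without any 1 of 5 and of 3 libraries and without the 3-digit libraries. Periostin (Postn), a matrix protein, was higher in KO by 1.77 ± 0.26 under TRF (adjusted p = 0.000259) and by 0.95 under AL, while P4ha1 was lower, by 0.60 ± 0.12 under TRF (log2 -0.60) and 0.42 under AL (log2 -0.42). Under TRF 2 of 7 stellate and 2 of 7 sinusoidal markers were higher in KO and 0 lower, where 5.32% of all genes were called higher, and their part was not tested.

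The 3 AL WT hearts at CT12 (libraries 47 and 48 and the 3-digit one) held transcripts typical of brain. Snap25, a synaptic gene, was at 74.2, 214.8 and 75.8 CPM on library totals there, in that order, and at most 1.79 CPM in the other hearts, against 945.8 CPM in the SCN, and Mbp, a myelin gene, was at 282, 638 and 281 CPM against at most 11.8 CPM. Of 18 collagens that were at least 5 times higher in the SCN than in the other hearts, all 18 were higher in these 3 hearts on average, by 6.03% to 21.0% of the SCN level (median 13.1%), and 12 lay above every other heart. Of 16 neuron, astrocyte and oligodendrocyte markers 15 were higher, with a median of 10.9%. Of 20 collagens lower in the SCN than in heart, 4 were higher on average in these hearts and 0 lay above every other heart. The shares of all genes for these counts are not given here. Library 48 of this group also had 34.2% mitochondrial counts, where the other hearts had 7.76% to 13.6%. Feeding and AL genotype in heart are therefore given with and without this group. Without it, feeding in WT, AL genotype and feeding by genotype are compared at CT0 alone. Averaged feeding then leaves out the TRF WT CT12 hearts as well, so these runs differ from the main ones in more than the 3 hearts. Counts of called members in these runs come without the share of all genes called. The AL WT time effect and its differences from TRF and from KO cannot be computed without this group.

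**Figure D3:**
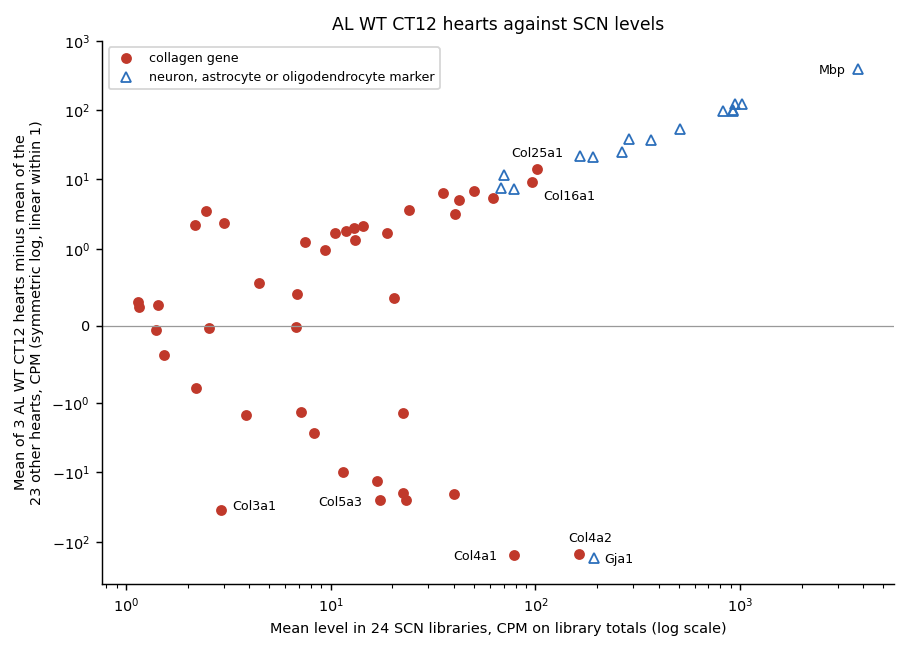
Mean CPM of the 3 AL WT CT12 hearts minus the mean of the 23 other hearts (symmetric log axis, linear within 1) against the mean SCN level (log axis) for collagen genes (filled circles) and 16 brain cell markers (open triangles). Collagens far higher in the SCN than in heart, such as Col25a1 and Col16a1, lie above 0 with 15 of the 16 brain markers. Col4a1, Col4a2 and Col5a3, which are lower in the SCN than in heart, lie below 0.

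Between CT12 and CT0 in AL WT hearts 15 of 39 tested members rose and 8 fell, where 40.3% of 16397 genes passed (23.1% higher, 17.2% lower). Of the 15 that rose, 6 passed the filter on low counts only through the CT12 group in which they are high and so had to differ: Col25a1, Col11a1, Col2a1, Col26a1, Col24a1 and Col6a5. The other 9 were Col9a2, Col23a1, Col9a3, Col12a1, Col4a6, Col16a1, Col11a2, Col8a2 and Col7a1, of which Col9a2 changed most (log2 3.05 ± 0.37) and Col16a1 least (log2 0.52 ± 0.13). Members that rose were mostly SCN-rich: Col25a1 was at 8.84, 25.9 and 7.93 CPM at CT12 (in the same order) and at 0.233 to 0.345 CPM at CT0, and Col11a1 at 4.25 to 11.2 CPM against 0.0583 to 0.115 CPM. Neither gene overlapped between the times. All 6 neuron and all 5 oligodendrocyte markers rose, the neuron sum running from 6.458 to 14.18 CPM at CT0 and from 241.8 to 717.2 CPM at CT12. The part of these transcripts in the 15 calls was not tested.

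The 8 members that fell were type IV, V, VI and XV chains, all of them lower in the SCN than in the other hearts, and all 8 passed the filter without the 3 hearts. Col4a1 was at 241.5, 192.6 and 223.8 CPM at CT12 and at 510.7, 533.4 and 486.9 CPM at CT0, and Col4a2 ran from 173 to 231 CPM against 435 to 484 CPM. Both genes had every CT12 library far below every CT0 library and fell by 1.22 ± 0.16 (adjusted p = 1.56e-06) and 1.12 ± 0.16 (adjusted p = 3.63e-06). Col5a3 was at 22.9, 10.8 and 17.2 CPM against 61.6, 75.7 and 66.3 CPM, and fell by 1.99 ± 0.37. Col6a3 fell by 0.90 ± 0.21 and Col15a1 by 0.86 ± 0.23. Col6a2, Col5a1 and Col6a1 fell by 0.68, 0.62 and 0.62, calls that ended without library 48 (p 0.0743, 0.0732 and 0.141) and, for Col6a1, also without library 39. Where 17.2% of all genes were called lower, all 6 endothelial markers fell, with sums of 1134 to 1233 CPM at CT0 and 583.6 to 777.4 CPM at CT12. Of the cardiomyocyte markers 5 of 6 fell, with sums of 66330 to 69130 and 42070 to 54280 CPM. The fibroblast sums of 369.3 to 380.1 and 355.7 to 437.2 CPM overlapped. On library totals that list had a mean sum of 782.3 CPM in the SCN and 375.5 CPM in heart. Of its 8 genes 2 were higher and 6 lower in the SCN than in heart. With brain transcripts in the CT12 hearts, the overlap does not show that fibroblast RNA was unchanged. The part of these cell types was not tested.

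Hearts of AL KO mice showed 1 call between the times. Col23a1, a transmembrane collagen, was at 2.73, 3.44 and 2.75 CPM at CT12 and at 4.35, 7.69 and 4.69 CPM at CT0, without overlap (log2 -0.90 ± 0.18, adjusted p = 0.0393; background 0.171%, 0.152% lower). The call ended without any 1 of libraries 2, 73, 57 and 65 or of the 3-digit AL KO CT12 library (p 0.0518 to 0.393). The median member was at -0.35, with 5 of 39 positive. The genotype difference in the AL time effect, 2 members higher and 13 lower in KO (background 28.5%, 11.2% higher and 17.4% lower), and the feeding difference in WT, 2 higher and 9 lower (background 29.9%, 12.4% and 17.5%), both rest on the 3 hearts.

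Under TRF, the heart member that differed between the times in both genotypes was Col11a2, a type XI chain that joins thin collagen fibrils. In TRF WT hearts it was at 9.06, 7.15 and 7.64 CPM at CT12 and at 4.75, 3.68 and 4.28 CPM at CT0. The times did not overlap, and it rose by 0.91 ± 0.20 (adjusted p = 0.0101), with p of 0.0529 to 0.0571 without library 2 or library 10. In TRF KO hearts the 4 CT12 libraries ran from 5.00 to 7.83 CPM and the 4 CT0 libraries from 2.90 to 4.87 CPM. These too lay apart, with a rise of 0.71 ± 0.17 (adjusted p = 0.0234) that ended without any 1 of libraries 20, 21, 55, 28 and 64 (p 0.0574 to 0.116). There 0 of 6 neuron and 0 of 5 oligodendrocyte markers passed the test in either genotype.

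The type VI chain Col6a6 was at 9.68, 9.70 and 9.15 CPM in TRF WT hearts at CT12 and at 15.9, 13.0 and 14.4 CPM at CT0, apart, and fell by 0.60 ± 0.14 (adjusted p = 0.0143). This ended without library 1, 3 or 12 (p 0.0507 to 0.0723). In TRF KO hearts Col6a3 was at 36.4, 50.6, 51.0 and 52.1 CPM at CT12 and from 28.5 to 31.8 CPM at CT0, apart, and rose by 0.67 ± 0.18 (adjusted p = 0.0443), a call that ended without any 1 of 22 libraries. So 1 member rose and 1 fell in TRF WT (background 4.37%, 2.21% higher and 2.16% lower) and 2 rose in TRF KO (background 3.22%, 1.74% higher). Without TRF WT heart 11 the WT count was 10, with 1 higher and 9 lower, and the share of all genes called in that run is not given here. That library had Col3a1 at 229 CPM, where the other CT12 hearts of the group had 55.8 and 111 CPM. The genotype difference under TRF was called for 0 members by edgeR (background 0%), with 11 at an unadjusted p under 0.05 and 1 called by DESeq2.

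**Figure D4:**
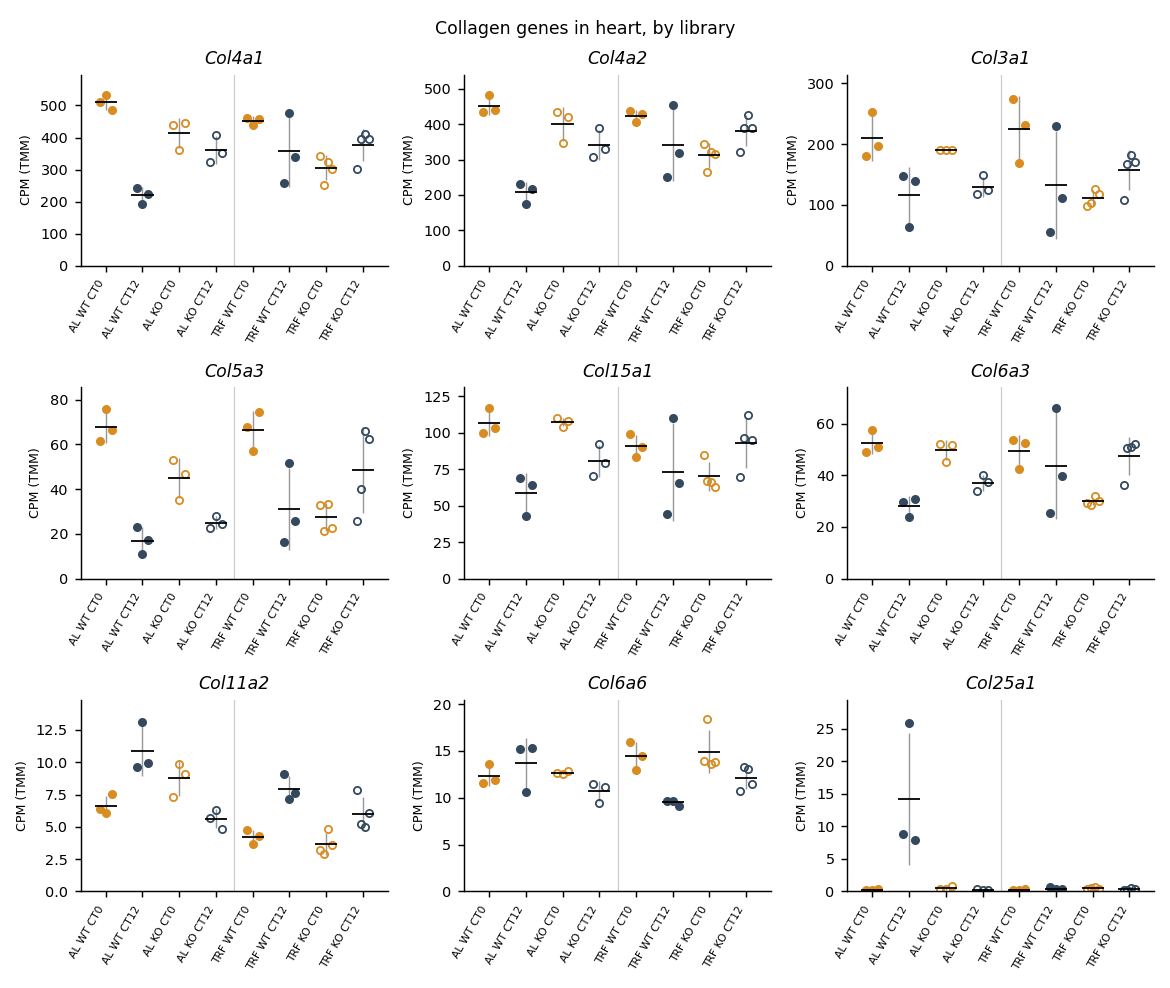
TMM-scaled CPM (y axes from 0) of 9 collagen genes in each heart library by feeding, genotype and time, drawn as for liver. Col4a1, Col4a2 and Col5a3 are low and Col25a1 is high in the AL WT CT12 hearts, and Col11a2 is higher at CT12 than at CT0 in both TRF genotypes.

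In KO hearts the time effect differed between feedings for 3 members, all higher under TRF (background 1.65%, 1.05% higher): Col11a2 by 1.34 ± 0.26 (adjusted p = 0.00742), Col6a3 by 1.09 ± 0.28 and Col23a1 by 0.93 ± 0.24. The Col11a2 call held whichever library was left out and, without the 3-digit AL libraries, had an adjusted p of 0.132. The calls of Col6a3 and Col23a1 ended without any 1 of 20 and of 19 libraries. Among helper genes in TRF hearts, Serpinh1 rose at CT12 by 0.74 ± 0.21 in WT (adjusted p = 0.0425) and by 0.72 ± 0.18 in KO (adjusted p = 0.0288), and P4ha2, a prolyl 4-hydroxylase subunit, by 0.69 ± 0.12 and 0.39. In WT 3 of 19 hydroxylation and folding genes rose and 0 fell, where 4.37% of all genes passed (2.21% higher). In KO 2 rose and 1 fell, where 3.22% of all genes passed (1.74% higher).

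Col11a2 was lower in heart under TRF than under AL. It ran from 2.90 to 9.06 CPM in 14 TRF hearts (median 4.93) and from 4.85 to 13.1 CPM in 12 AL hearts (median 7.40). The groups overlapped, and it was lower by 0.56 ± 0.09 (log2 -0.56, adjusted p = 0.000125), whichever library was left out. Without the 3 AL WT CT12 hearts the change was -0.60 (adjusted p = 0.000258). In WT it was -0.55 ± 0.14 (adjusted p = 0.00422) and in KO -0.58 ± 0.13 (adjusted p = 0.0125), the latter with p of 0.05 without library 66 and 0.0638 without the 3-digit AL libraries. Col8a1, of the network under some endothelia, ran from 12.0 to 17.3 CPM under TRF (median 14.3) and from 9.41 to 16.3 CPM under AL (median 11.9), with overlap. It was higher by 0.23 ± 0.06 (adjusted p = 0.0117), and by 0.18 without the 3 hearts (adjusted p = 0.0574).

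Altogether 1 of 39 members rose and 8 fell with TRF (background 21.9%, 8.08% higher and 13.8% lower). In WT 2 rose, Col8a1 and Col4a2, and 10 fell (background 24.0%, 8.57% and 15.4%), namely Col25a1, Col9a2, Col9a3, Col16a1, Col11a2, Col11a1, Col23a1, Col6a5, Col26a1 and Col7a1, and in KO 1 fell (background 2.87%, 1.71% lower). Without the 3 hearts the first count was 3, with 2 higher and 1 lower, and the WT count, at CT0 alone, was 2, with 1 higher and 1 lower. Col23a1 went from -0.35 to -0.07, Col16a1 from -0.21 to -0.04 and Col9a2 from -0.69 to 0.07, and none of them was called. Col25a1, Col6a5, Col2a1, Col11a1 and, among the WT calls, Col26a1 passed the filter on low counts only through these hearts, in which they are high. Their differences from that group had to appear and are no evidence of an effect. They had no test without these hearts. In WT, Col4a2 went from 0.32 ± 0.11 to -0.09 without them. All 6 neuron and all 5 oligodendrocyte markers were lower under TRF, and so were all 3 adipocyte markers; their part was not tested. The feeding effect differed between genotypes for 4 members (background 8.79%, 6.33% higher), Col9a3, Col25a1, Col9a2 and Col16a1, and of these Col9a3, Col9a2 and Col16a1 lost the call without the 3 hearts, while Col25a1 had no test.

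Between genotypes under AL, 1 heart member was higher and 8 lower in KO (background 18.6%, 6.34% higher and 12.2% lower). Without the 3 hearts, with CT0 alone compared, 1 was called, higher. Of the 8 lower ones, Col9a2 went from -2.25 ± 0.30 to -0.28 without them, Col9a3 from -1.66 to -0.44 and Col16a1 from -0.46 ± 0.10 to -0.05, and none of these was called. Col25a1, Col11a1, Col26a1, Col6a5 and Col24a1 passed the filter on low counts only through the 3 hearts, in which they are high. Their calls therefore had to appear and are no evidence of an effect. Without the 3 hearts they had too few counts to be tested. Col27a1 ran from 9.13 to 14.2 CPM in 6 KO hearts (median 12.7) and from 7.38 to 11.4 CPM in 6 WT hearts (median 9.40), overlapped, and was higher by 0.39 ± 0.14 (adjusted p = 0.0494), a call that ended without any 1 of 20 libraries and, without the 3 hearts, had a log2 difference of 0.55 and an adjusted p of 0.0916. Under TRF only Col28a1 was called, lower by 0.73 ± 0.20 (log2 -0.73, adjusted p = 0.0443; background 2.76%, 1.50% lower), and this ended without any 1 of 16 libraries.

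In the SCN, where all 43 members were tested, feeding was the comparison with calls: 2 members were higher and 5 lower under TRF (background 16.3%, 8.96% higher and 7.35% lower). Col19a1, a FACIT, ran from 3.07 to 8.81 CPM under TRF (median 5.47, n = 12) and from 1.63 to 4.42 CPM under AL (median 3.51, n = 12). The feedings overlapped, and it was higher by 0.78 ± 0.14 (adjusted p = 0.00269). Col6a2 was higher by 0.42 ± 0.09. Col4a2, the leading SCN collagen, ran from 140 to 160 CPM under TRF and from 150 to 217 CPM under AL and was lower by 0.23 ± 0.05 (log2 -0.23, adjusted p = 0.00389). Col2a1, Col5a3, Col9a2 and Col23a1 were also lower, the last in a call that ended without any 1 of 17 libraries, and Col9a2 in a call with p of 0.0538 when no filter on low counts was used. Markers of other cells moved too: all 5 tested macrophage markers and 3 of 5 oligodendrocyte markers were higher under TRF and 0 lower. The macrophage sum ran from 163 to 266.6 CPM under TRF (median 226.7) and from 168 to 235.7 CPM under AL (median 175), and the oligodendrocyte sum from 4963 to 8193 CPM against 4433 to 6571 CPM. Both overlapped, and their part in the collagen calls was not tested. edgeR called 0 members between genotypes under AL (background 0%) and under TRF (background 0.00551%). It also called 0 between times in AL WT (background 0.0276%) and TRF WT (background 0.0165%). In that order, 1, 5, 4 and 9 of 43 members had an unadjusted p under 0.05. The backgrounds are shares at the adjusted threshold and do not apply to those counts.

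The feeding and genotype effects of heart and liver were set against each other in the fit over all tissues. The change from AL to TRF was lower in heart than in liver for Col11a2 (log2 -0.74), Col20a1 (log2 -0.66) and Col16a1 (log2 -0.47), so it was lower for 3 members and higher for 0 (background 13.2%, 7.28% lower). The Col11a2 call held in every alternative run. That of Col20a1 had p of 0.0501 without the 3-digit AL libraries and 0.125 without the condition AL WT CT12. With that condition left out, this feeding comparison also leaves out the TRF WT CT12 libraries of both tissues. That of Col16a1 ended without any 1 of 15 libraries (p 0.059 to 0.141), and had p of 0.209 and 0.394 under those 2 alternatives. The genotype effect under AL differed for 3 members, Col27a1 higher in heart by 0.76 and Col25a1 and Col24a1 lower (background 16.0%, 7.40% higher and 8.62% lower). Without the condition AL WT CT12, with CT0 alone compared, it differed for 0. In the heart fit Col25a1 and Col24a1 passed the filter on low counts only through the AL WT CT12 hearts, in which they are high. The Col27a1 call ended without any 1 of 8 libraries (p 0.0567 to 0.142) and the Col24a1 call without any 1 of 16 (p 0.05 to 0.233). Under TRF it differed for 2, Col7a1 higher by 0.85 and Col14a1 lower by 0.68 (log2 -0.68; background 7.13%, 3.75% and 3.38%), calls that ended without library 2 (p 0.0513) and without any 1 of libraries 1, 3, 11, 20 and 21 (p 0.0603 to 0.119).

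**Figure D5:**
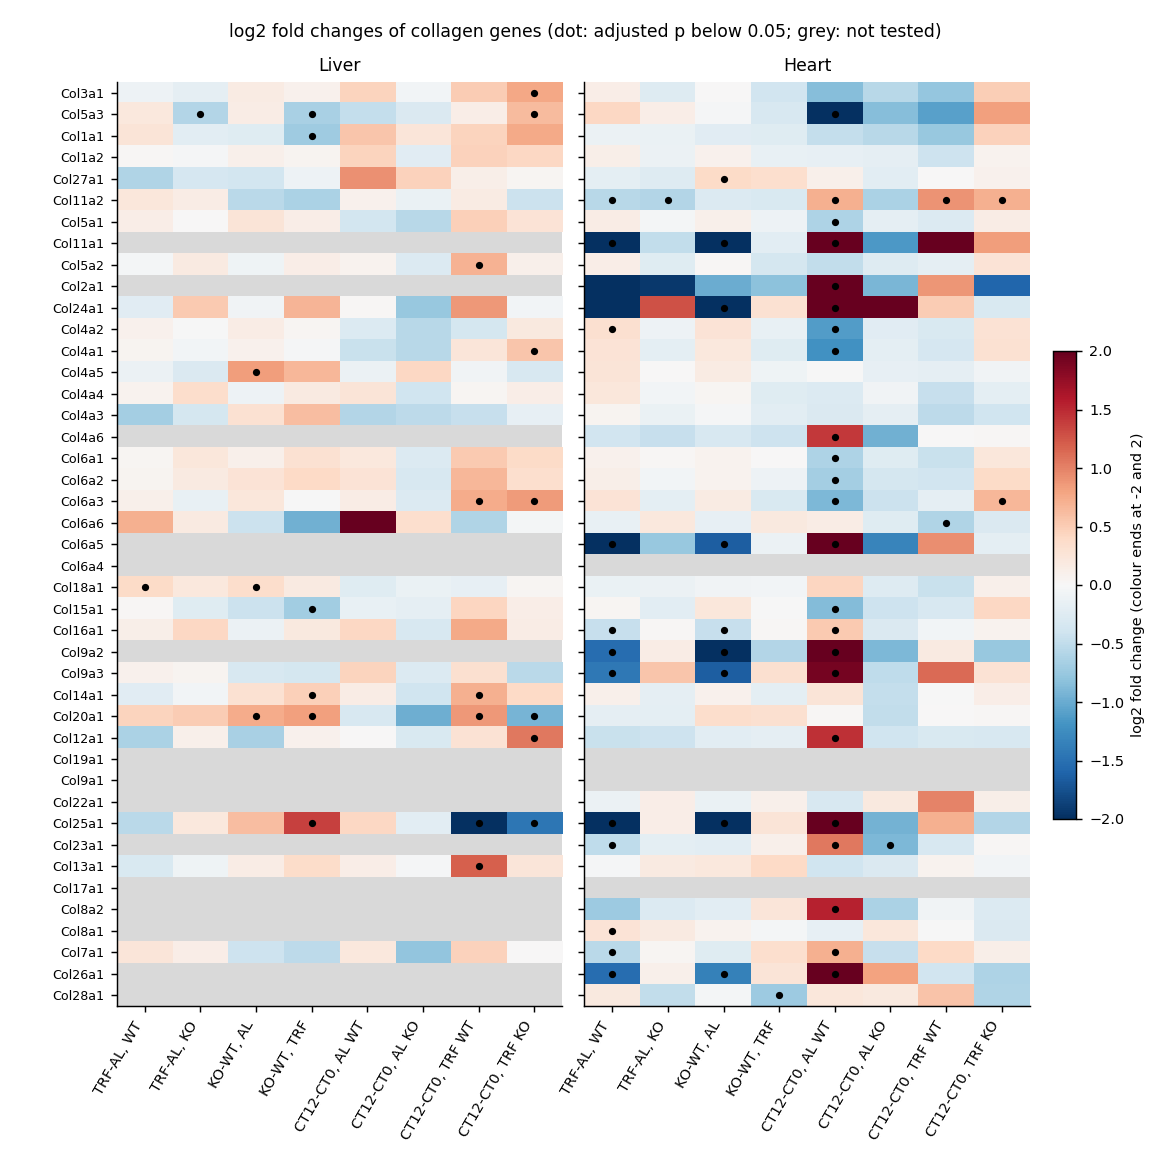
log2 fold changes of the collagen genes in 8 comparisons in liver and heart (colour, ending at -2 and 2; black dots mark an adjusted p below 0.05, grey cells were not tested). The column of AL WT hearts between CT12 and CT0 holds 23 dots, and the liver columns hold dots for time under TRF and none for time under AL.

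Promoters of 34 of the 43 members were found in the RefSeq table (GRCm38.p6; 250 bases before to 50 after the start). On either strand, the E-box CACGTG, the motif of CLOCK and BMAL1, was in 0 of 34, against 8.1% of 27025 genes. The letters GGGCGG were in 22 (64.7%, against 38.2% of all genes) and CCAAT in 13 (38.2%, against 41.1%). These matches describe the letters of this window and are not binding sites.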

How the data were processed

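Per the labels' protocols, RNA was extracted with TRIzol and 1.3 ug of it entered the NEBNext Ultra II library preparation. The authors deposited 1 table of whole-number counts per gene, not normalized. FastQC 0.11.8, STAR and the build mm10 (GRCm38) are named in the submitters' processing notes; the STAR version, counting program, strand setting and filters are not given in the sources used here. Columns were matched to samples by title. Exon lengths and coordinates came from GENCODE vM21.

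The members and gene lists were chosen with earlier results of these data known. Each tissue was fitted with edgeR 4.0.16 (filterByExpr, TMM, robust quasi-likelihood on group means; limma 3.58.1, R 4.3.3), with Benjamini-Hochberg adjustment over all genes and a threshold of 0.05; 28 members were tested in liver, 39 in heart and 43 in SCN. A joint fit of 20006 genes compared tissues. The standard error is the absolute log2 change over the square root of F. Named were the 12 highest members per kilobase in each tissue, called members by smallest adjusted p (tissue contrasts as counts) and up to 4 genes of each other list; per-library values of Col27a1 in AL WT liver, Col3a1 in TRF WT heart and Col4a1 in AL KO liver were chosen after they were seen. Alternatives were RLE factors, no filter, DESeq2 1.42.0, the compared groups alone, a replicate block and libraries left out; leaving out the AL WT CT12 hearts was added after seeing the data. The fits were tested on simulated data. Numbers shared between tissues were not taken to pair libraries: same-number deviations correlated between -0.302 and 0.246, and were all over 0.1 in 1 of 24 combinations of group and tissue pair (TRF KO CT12, liver with heart, 0.113 to 0.246). Tables and figures used Python 3.11.15, pandas 2.3.3 and matplotlib 3.10.9.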

Additional observations from a re-analysis of the deposited data

Results flagged for a closer look

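In the TRF KO groups of 4, 101 sets of values were examined and 9 had a library apart from the other 3, where chance gives about 1 in 20. In liver at CT0 these were Col6a2 at 8.72 CPM in library 21 (others 3.76 to 4.45) and Col5a1 at 8.68 CPM in library 20 (others 7.40 to 7.59). In liver at CT12 they were Col20a1 at 6.59 CPM in library 28 (others 3.98 to 4.07) and Col3a1 at 32.3 CPM in library 30 (others 21.0 to 21.9). In heart at CT0, library 21 had Col18a1 at 11.8 CPM (others 16.1 to 16.6) and Col6a6 at 18.4 CPM (others 13.6 to 13.9), and library 55 had Col13a1 at 1.74 CPM (others 2.32 to 2.44). In heart at CT12, library 28 had Col4a1 at 302 CPM (others 394 to 412) and Col6a3 at 36.4 CPM (others 50.6 to 52.1).

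A further 48 results are effects that differed between groups by a test of the difference itself (log2, edgeR, adjusted p below 0.05). In liver the feeding effect in KO minus that in WT was -0.79 for Col5a3. The time effect under TRF minus that under AL was 0.69 for Col4a1 and 1.07 for Col13a1 in WT livers, and 1.10 for Col4a1, 1.12 for Col6a3, 0.92 for Col5a3 and 0.79 for Col14a1 in KO livers.

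In heart the feeding effect in KO minus that in WT was 1.98 for Col9a3, 2.69 for Col25a1, 1.66 for Col9a2 and 0.49 for Col16a1. The time effect under TRF minus that under AL in KO was 1.34 for Col11a2, 1.09 for Col6a3 and 0.93 for Col23a1. In WT hearts it was -4.85 for Col25a1, -1.38 for Col23a1, -2.87 for Col9a2, -0.76 for Col6a6, 0.88 for Col4a1, -1.75 for Col12a1, -2.97 for Col26a1, 0.81 for Col4a2, -0.88 for Col18a1, -0.57 for Col16a1 and -1.41 for Col4a6. The AL time effect in KO minus that in WT was -6.51 for Col25a1, -1.96 for Col23a1, -3.94 for Col9a2, -1.34 for Col11a2, -2.37 for Col4a6, -7.45 for Col11a1, 1.02 for Col4a1, -2.43 for Col9a3, -5.29 for Col2a1, -4.42 for Col6a5, -0.81 for Col16a1, -1.85 for Col12a1, 0.89 for Col4a2, -1.17 for Col7a1 and -2.18 for Col8a2. The feeding by genotype, WT and AL differences use the 3 AL WT CT12 hearts that hold brain transcripts, whose part in them was not tested. Col25a1, Col11a1, Col2a1, Col26a1 and Col6a5 passed the filter on low counts only through that group, in which they are high. Their differences from it therefore had to appear and are no evidence of an effect. The TRF WT CT0 hearts used for Col18a1 hold liver transcripts, whose part was not tested.

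Between tissues, the feeding effect in heart minus that in liver was -0.74 for Col11a2, -0.66 for Col20a1 and -0.47 for Col16a1. The AL genotype effect in heart minus that in liver was -3.03 for Col25a1, 0.76 for Col27a1 and -3.20 for Col24a1. Under TRF it was 0.85 for Col7a1 and -0.68 for Col14a1. The feeding and AL genotype differences use the AL WT CT12 hearts that hold brain transcripts, whose part in them was not tested. Without the condition AL WT CT12, with CT0 alone compared, the AL genotype calls of Col25a1, Col27a1 and Col24a1 ended. In the heart fit Col25a1 and Col24a1 passed the filter on low counts only through those hearts, in which they are high.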

How the results depend on the processing

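Of the values for single members under alternatives, 7916 kept direction and side of the threshold, 546 lost the call and 6 reversed. Counts under alternatives come without the share of all genes called, which can move with them, so they describe the members only. RLE factors and, in the joint fit, the replicate block moved no count by over 1.5 times (38 members between heart and liver with the block as without), and the block ended 1 call, Col24a1 for AL genotype between tissues (adjusted p 0.0655); the cause of the changes that follow was not tested. Counts of called members without the 4 AL libraries of 3-digit number were 0 for liver feeding, feeding in WT, AL genotype, feeding by genotype and feeding by time in WT, 3 for TRF WT time and 1 for feeding by time in KO; 0 in heart for feeding in KO, TRF genotype, AL KO time, TRF KO time and feeding by time in KO; 15 for SCN feeding; and 1 each for feeding and AL genotype between tissues. Without TRF KO libraries 55 and 64 they were 2 (liver feeding in KO), 0 (liver feeding by genotype), 0 (heart TRF genotype), 0 (heart TRF KO time) and 1 (heart feeding by time in KO). With only the groups compared they were 7 (liver AL genotype), 2 (liver TRF genotype), 1 (AL WT time), 3 (AL KO time), 1 (TRF WT time), 0 (feeding by time in WT) and 1 (genotype by time under AL) in liver, and 3 (AL KO time) and 6 (feeding by time in KO) in heart. With no filter they were 0 (liver feeding by genotype), 3 (liver TRF WT time), 0 (heart TRF genotype), 0 (heart AL KO time), 1 (heart TRF KO time), 1 (heart feeding by time in KO) and 1 (AL genotype between tissues). DESeq2 gave 1 (liver AL WT time), 4 (liver feeding by time in WT), 1 (genotype by time under TRF in liver), 1 (the same in heart), 11 (SCN feeding), and 5, 7 and 4 between tissues (feeding, AL genotype, TRF genotype). Without the 3 AL WT CT12 hearts heart counts were 3 (feeding), 2 (feeding in WT), 1 (AL genotype), 1 (feeding by genotype) and 1 (TRF KO time), with the WT and AL contrasts then at CT0 alone and members of low counts untested; without that condition in all tissues, 1 (feeding between tissues) and 0 (AL genotype between tissues). Reversed were, without those hearts, Col9a2 with feeding (0.072), Col23a1 (0.185) and Col4a2 (-0.086) with feeding in WT, and Col6a3 between SCN and liver (0.16 with RLE, 0.007 with no filter, 0.16 with DESeq2).

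Leaving out 1 number at a time gave, in liver, 1 to 4 (feeding), 0 to 2 (in WT), 1 to 2 (in KO), 1 to 4 (AL genotype), 2 to 7 (TRF genotype), 0 to 1 (feeding by genotype), 0 to 1 (AL WT time), 2 to 8 (TRF WT time), 6 to 8 (TRF KO time), 0 to 6 and 1 to 6 (feeding by time in WT and KO) and 0 to 2 (genotype by time under TRF). In heart the ranges were 7 to 11 (feeding), 10 to 14 (in WT), 0 to 1 (in KO), 5 to 10 (AL genotype), 0 to 1 (TRF genotype), 3 to 7 (feeding by genotype), 21 to 25 (AL WT time), 0 to 1 (AL KO time), 1 to 10 (TRF WT time), 0 to 2 (TRF KO time), 8 to 12 and 1 to 4 (feeding by time in WT and KO), 13 to 19 and 0 to 4 (genotype by time under AL and TRF). They were 6 to 13 for SCN feeding, 37 to 38 between heart and liver, 40 to 42 between SCN and liver, 41 to 42 between SCN and heart, and 2 to 4, 1 to 4 and 1 to 4 for feeding, AL genotype and TRF genotype between tissues. With 3 or 4 libraries a group and several members under 1 CPM, small changes of low members were not detectable at this depth.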
